A study of Saccharomyces cerevisiae with 2 samples.

Results

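The GAL7, GAL10 and GAL1 genes of budding yeast lie side by side on chromosome 2, and the nucleosomes over them were compared between wild-type cells and cells without the chromatin remodelling enzyme Fun30. Members were all nucleosome calls on chromosome 2 with a centre from 273.5 to 281.5 kb, in the coordinates of the deposited files. The wild-type library had 33 such calls of 48019 in all, and the fun30D library had 34 of 48135. Both strains were Saccharomyces cerevisiae BY4741, a standard haploid laboratory strain with deletions of the marker genes HIS3, LEU2, MET15 and URA3. One group was labelled Wild Type and the other fun30D, a strain that lacks FUN30. Cells of both groups were grown in YPD, a rich medium with glucose, at 30 °C, harvested at an optical density of about 0.5 and fixed with 1% paraformaldehyde for 30 min. Crude nuclei were treated with micrococcal nuclease, an enzyme that cuts linker DNA, for 10 min at 37 °C. Gel-purified mononucleosomal DNA was then sequenced. There was 1 library per genotype, so the differences below have no replicate check, and none was tested between genotypes.

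The 3 genes encode the enzymes of galactose use. Gal1 is galactokinase, which phosphorylates galactose. Gal7 is galactose-1-phosphate uridylyltransferase, and Gal10 is a mutarotase and UDP-galactose 4-epimerase. GAL10 and GAL1 are transcribed away from a shared control region where the activator Gal4 binds. In glucose the genes are repressed, with Gal80 masking the activator and Mig1 acting at the promoters. In galactose Gal3 releases Gal4 from Gal80, and the cluster is strongly induced. Nucleosomes over the start sites are a textbook feature of the repressed state, and they are lost on induction. The cells studied here were grown in glucose medium, so the calls describe the repressed cluster. No listed call of either library covered the start of any of the 3 genes, as placed below. These starts are span ends given to 0.1 kb, not mapped transcription starts, so the textbook pattern was not tested. For GAL7 the point is not settled. A fun30D call had its edge at 275516, nearer to the placed start at 275.5 kb than the possible error of about 20 bp. The other genes of the pathway, such as GAL2, GAL3, GAL4 and GAL80, were not analysed here.

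The genes were placed by spans given to 0.1 kb. GAL7 (YBR018C) was taken as 274.4 to 275.5 kb and GAL10 (YBR019C) as 276.3 to 278.4 kb, both transcribed toward lower coordinates. GAL1 (YBR020W) was taken as 279.0 to 280.6 kb, transcribed toward higher coordinates, and the shared control region as 278.4 to 279.0 kb. The files name no genome build. On chromosome 2 the average call profile around gene starts was displaced by -13.5 bp from assembly R64, and by -20.5 to -5.5 bp over 4 parts of the chromosome. The value was -5.5 bp in the part that holds the GAL genes, so the spans may be off by about 20 bp. In the gene table KAP104, which encodes a nuclear import receptor, is the neighbour before GAL7, and FUR4, which encodes the uracil permease, follows GAL1. The table also lists an antisense RNA, YNCB0008W, between GAL10 and GAL1 when sorted by lowest coordinate. Its length is 3841 bp, so it is not confined to the control region of 0.6 kb.

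Across the libraries the deposited occupancy signal had nearly identical distributions, with quantiles that differed by at most 0.0177%. The scale was therefore matched, and only its distribution along the chromosomes can be compared. The median occupancy of all calls was 0.210 in both libraries and the lowest was 0.0824, so weaker nucleosomes are not in the lists. The depth of the libraries is unknown. On chromosome 1, the chromosome of FUN30, 18 consecutive wild-type calls had no partner, and the fun30D library had 0 calls between the first and last of them.

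The cluster had a strongly uneven nucleosome pattern that was much the same in both libraries. GAL10 and GAL1 carried most of the strong calls, GAL7 carried weaker ones, and the control region held only a pair of weak calls. Summed occupancy per kb was 2.13 in wild type and 2.25 in the fun30D library over GAL1, and 1.88 and 2.07 over GAL10. Over GAL7 it was 1.03 and 1.14, and over the control region 0.366 and 0.476. The value over chromosomes 1 to 16 was 1.31 in both libraries. GAL1 and GAL10 thus lay above the average of all chromosomes, and GAL7 and the control region below it, in both genotypes. That average takes in genes and the stretches between them alike. The zones were not compared with other genes or other control regions.

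**Figure D1:**
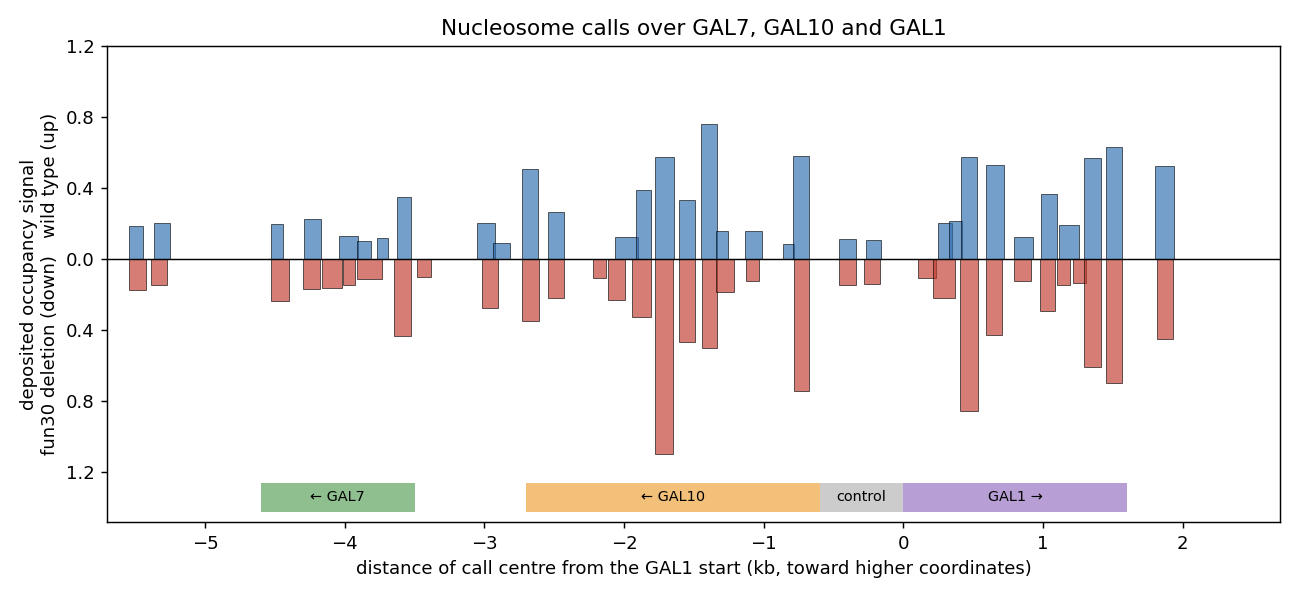
Nucleosome calls by distance of the centre from the GAL1 start (kb), with bar height the deposited occupancy signal and bar width the call width. Wild-type calls point up and fun30D calls point down, and the coloured blocks mark the gene spans and the control region. The strongest wild-type call reaches 0.759 and the strongest fun30D call 1.10, both inside GAL10.

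The sums rest on the number of calls, their mean signal and the length they cover. Over GAL1 there were 9 wild-type calls with a mean occupancy of 0.379 that covered 1034 bp, and 10 fun30D calls with a mean of 0.360 that covered 1148 bp. Over GAL10 both libraries had 11 calls. Their mean was 0.359 over 1232 bp in wild type and 0.395 over about 1242 bp in fun30D. The 6 calls of GAL7 covered 630 bp in wild type and 766 bp in fun30D, with means of 0.189 and 0.209. For the whole window the sum was 9.92 in wild type and 10.6 in fun30D, a ratio of 1.07, where the ratio over chromosomes 1 to 16 was 1.00. The ratios were 1.11 for GAL7, 1.10 for GAL10 and 1.06 for GAL1. They were 1.29 for the stretch between GAL7 and GAL10 and 1.30 for the control region, each from 2 calls per library. The flanks had lower sums in fun30D, with ratios of 0.828 before GAL7 and 0.849 after GAL1. For GAL10 and GAL1 a ratio above 1 depended on the pair with the largest occupancy difference, at 277291 and at 279468 in wild type. That pair was higher in fun30D in both genes and was chosen after the values had been seen. Pairs that went the other way, such as 277609 in GAL10 with 0.759 in wild type and 0.499 in fun30D, were not left out in turn. Without that pair the ratio was 0.964 for GAL10 and 0.968 for GAL1, and the median log2 ratio of the pairs was -0.019 in GAL10 and 0.014 in GAL1. These ratios have no error, since each comes from 1 library per genotype.

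**Figure D2:**
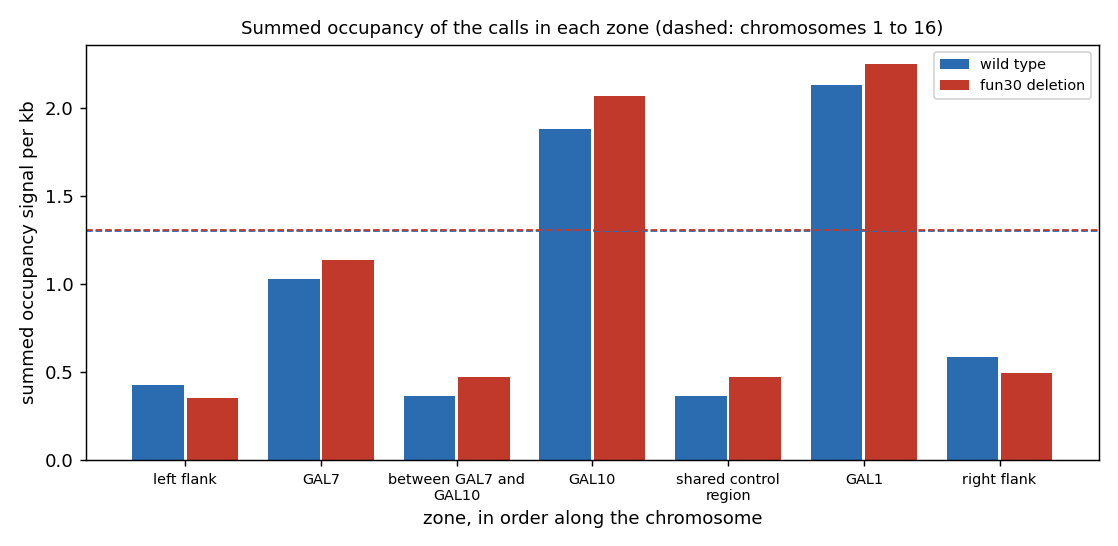
Summed occupancy signal per kb in each zone, in order along the chromosome, with blue bars for wild type and red bars for fun30D. The dashed lines give the value over chromosomes 1 to 16 (1.31 in both libraries), and only GAL10 and GAL1 lie above it.

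The shared control region of GAL10 and GAL1 is described first, because both genes are switched from it. In wild type its calls were at 278602, 123 bp wide with an occupancy of 0.111, and at 278785, 102 bp wide with 0.108. The fun30D calls were at 278598, 123 bp wide with 0.144, and at 278774, 119 bp wide with 0.142. Both calls were weak in both libraries, at occupancy percentiles of 14.9 and 13.5 in wild type and 29.2 and 28.6 in fun30D. Each was 1.29 to 1.31 times higher in fun30D, a log2 ratio of 0.37 and 0.39, and the centres lay 4 and 11 bp lower. Over all 40794 pairs of the genome the log2 ratio had an SD of 0.50, so both differences were smaller than the spread among nucleosomes.

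The distances to the next calls differed between the sides of this pair. On the GAL10 side the distance from the first nucleosome of GAL10 to the nearer control region call came to 335 bp in wild type against 328 bp in fun30D. Of all intervals in the respective library, 18.3% and 18.9% were as long. On the GAL1 side the next wild-type call was at 279298, 513 bp away. In fun30D library a call at 279170 with an occupancy of 0.108 lay between, so that the distance to the next call was 396 bp. Measured between call edges these GAL1-side distances were about 414 bp in wild type and 274 bp in fun30D. Of all intervals between neighbouring calls, 7.98% in wild type were as long as 513 bp, and 13.4% in fun30D were as long as 396 bp. The added call was at a percentile of 13.3 in its library. Calls under 0.0824 are not listed, so a weaker nucleosome at this place in wild type would be missing from the list.

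At the start of GAL1 the calls were arranged differently in the libraries. The first wild-type calls were at 279298, with a width of 97 bp and an occupancy of 0.206, and at 279375, with a width of 95 bp and an occupancy of 0.214. They overlapped, with centres only 77 bp apart. The fun30D library had 1 wide call there, at 279288 with a width of 156 bp and an occupancy of 0.218, together with the weak call at 279170. The wild-type call at 279375 had no partner. The next nucleosome was strong and nearly fixed in place, at 279468 with 0.577 in wild type and at 279470 with 0.855 in fun30D. This was a 1.48-fold difference, the largest among the pairs of GAL1.

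The rest of GAL1 kept its order of strong and weak nucleosomes. The call at 279657 in wild type was at 279647 in fun30D, with occupancies of 0.529 and 0.425. A weak one followed at 279860 and 279850, with 0.126 and 0.122. The following nucleosome, at 280040 and 280032, had 0.365 and 0.290. At all 3 fun30D centre lay 8 to 10 bp lower and the occupancy was lower in fun30D. Farther along, a wild-type call at 280188, 142 bp wide with 0.193, faced a pair of fun30D calls. These were at 280146, 97 bp wide with 0.147, and at 280259, 95 bp wide with 0.136, and the first was paired with a displacement of -42 bp.

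The end of GAL1 held the most stable positions of the gene. The last calls were at 280354 and 280506 in wild type, against 280355 and 280507 in fun30D. They were 152 bp apart in both libraries. Occupancies were 0.567 and 0.634 in wild type, and 0.604 and 0.695 in fun30D, which are ratios of 1.07 and 1.10. Past the gene a single strong nucleosome lay in the right flank, at 280868 with 0.527 in wild type and at 280874 with 0.448 in fun30D. Beyond it, toward FUR4, no call followed for 864 bp in wild type, up to 281732, and for 788 bp in fun30D, up to 281662. Only 1.91% of the wild-type and 2.55% of fun30D intervals of the genome were as long.

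GAL10 began with a strong nucleosome beside the control region, at 278267 with an occupancy of 0.582 in wild type and at 278270 with 0.739 in fun30D. It was 1.27-fold higher in fun30D and was the third strongest call of the window in both libraries. A weak wild-type call at 278178, with 0.0883 and close to the lowest deposited value, had no partner. The next nucleosome was also weak, at 277929 with 0.160 in wild type and at 277918 with 0.125 in fun30D. Just inside the start of GAL10, 1 strong nucleosome was thus followed by these 2 weak calls in wild type and 1 in fun30D. A further weak call came before the next strong one, at 277701 with 0.160 in wild type and at 277723 with 0.186 in fun30D.

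The middle of GAL10 carried a regularly spaced array. Its 4 nucleosomes were at 277139, 277291, 277447 and 277609 in wild type, with distances of 152, 156 and 162 bp. In fun30D they were at 277124, 277288, 277447 and 277613, with distances of 164, 159 and 166 bp. The nucleosome at 277447 had the same centre in both libraries. Its neighbours on either side lay 3 and 4 bp away from their wild-type place, and the outermost lay 15 bp lower. In fun30D the next distance, from 276947 to 277124, was similar at 177 bp. Such spacing was not confined to GAL10. From 279860 to 280506 in GAL1 the wild-type distances were 180, 148, 166 and 152 bp. In fun30D the distances from 279850 to 280507 were 182, 114, 113, 96 and 152 bp.

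Occupancy within the array of 4 nucleosomes in GAL10 was distributed differently in the libraries. At 277291 it was 0.578 in wild type and 1.10 in fun30D, a 1.90-fold difference (log2 ratio 0.93) and the largest of the window. At 277447 it was 0.332 and 0.468, which is 1.41-fold higher in fun30D. The call at 277609 went the other way, with 0.759 in wild type and 0.499 in fun30D, 1.52-fold lower. It was the strongest of the window in wild type and ranked 6 in fun30D, where the call at 277288 ranked 1. At the edge of the array the call at 277139 had 0.390 and 0.326. The nucleosomes of the array thus did not differ in 1 direction. They were singled out after their values had been seen.

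Next to the array on the side of the GAL10 start, a weak call at 277701 overlapped the strong one in wild type, with a width of 81 bp and an occupancy of 0.160. Its fun30D partner, at 277723, was 124 bp wide with 0.186 and lay 22 bp higher. It overlapped the strong call too, with an edge distance of -5.5 bp, against -6 bp in wild type. On the other side a wide wild-type call at 277014, 164 bp across with 0.124, was paired with a fun30D call at 276947, 119 bp wide with 0.230. The pair had the largest displacement of the window, 67 bp. Calls were paired only up to 73 bp, so this pair may join different nucleosomes.

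The part of GAL10 toward its end had a stretch without calls, from 276515 to 277014 in wild type, or 499 bp. An interval of that length or more was found in 8.50% of wild-type neighbours. In fun30D a weak call at 276825, with 0.104, lay inside this stretch. The fun30D call at 276947, with 0.230 and above the median of all calls, had its centre there too. It is the call paired above with 277014. With both calls the longest distance there was 312 bp. An antisense RNA is known to start within this end of GAL10 and to run toward GAL1 in glucose. Its start was not placed on these coordinates. The last calls of GAL10 were at 276515 and 276325 in wild type, against 276513 and 276330 in fun30D. Their occupancies were 0.267 and 0.509 in wild type and 0.221 and 0.350 in fun30D. Both were lower in fun30D, the second by 1.46-fold.

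GAL7 was the least occupied of the genes in both libraries. Its first nucleosome was its strongest, at 275421 with 0.353 in wild type and at 275414 with 0.432 in fun30D. The other wild-type calls ranged from 0.105 to 0.229, and the other fun30D calls from 0.111 to 0.236. A single wild-type call of the gene other than the first, at 274768, exceeded the median of all calls, and a single fun30D one did, at 274534.

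Call widths within GAL7 differed widely between the libraries. The wild-type call at 275030 was 136 bp wide and its fun30D partner at 275033 was 85 bp wide, with occupancies of 0.130 and 0.147. The next pair, at 275140 and 275177, had a width of 102 bp in wild type against 174 bp in fun30D, with 0.105 and 0.111. The wild-type call at 275269, with 0.120, and fun30D call at 274907, with 0.162, had no partner. At the end of the gene the call at 274515 was 91 bp wide in wild type, and its partner at 274534 was 131 bp wide.

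Upstream of GAL7 the first nucleosome of the gene was followed by a long interval in wild type. The next call, at 276013 with an occupancy of 0.202, was 592 bp away, and 5.77% of the wild-type intervals of the genome were as long. In fun30D a weak call at 275566, with 0.102, lay at the edge of the gene, and the next one, at 276040 with 0.275, was 474 bp farther. A wild-type call at 276124, with 0.0901, had no partner. On the other side of GAL7, toward KAP104, the distance from 273689 to 274515 was 826 bp in wild type, and that from 273669 to 274534 was 865 bp in fun30D. Those were the longest intervals within the window, and 2.21% and 1.89% of intervals in the respective library were as long. The left flank held 2 calls per library, at 273506 and 273689 in wild type, against 273515 and 273669 in fun30D. Their occupancies were 0.184 and 0.201, and 0.171 and 0.148.

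Taking the window as a whole, 29 of the 33 wild-type calls (87.9%, exact 95% interval 71.8 to 96.6%) had a partner in the other library, as had 29 of the 34 fun30D calls (85.3%, 68.9 to 95.05%). Intervals cover counting error over calls only. Calls without a partner made up 15.0% of the wild-type and 15.2% of fun30D calls on all chromosomes, against 4 of 33 and 5 of 34 here. The unpaired calls ranged from 0.0883 to 0.214 in wild type and from 0.102 to 0.162 in fun30D, and only the wild-type call at 279375 was above the median of all calls. Of the 5 unpaired fun30D calls, those at 275566, 276825 and 279170 lay in stretches of 592, 499 and 513 bp that had no call in wild type. They were weak, at percentiles of 10.2, 11.3 and 13.3 in fun30D. A slightly weaker nucleosome at these places in wild type would not be listed. The unpaired wild-type calls at 276124 and 278178 lay in fun30D intervals of 290 and 352 bp.

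Displacements were small for most nucleosomes of the cluster. The median absolute displacement was 8 bp over the 29 pairs, with quartiles of 3 and 15 bp, and 9 bp over all pairs of the genome, with quartiles of 3 and 21 bp. A displacement of 20 bp or more was found in 6 pairs (20.7%, 7.99 to 39.7%), where 26.6% of all pairs were displaced as much. The genome share lay within the counting interval of the window share. The fun30D centre was higher in 13 pairs, lower in 15 and the same in 1. The displaced pairs were split evenly, with 3 toward higher and 3 toward lower coordinates, where 13.4% and 13.2% of all pairs were displaced in these directions. A pair in the left flank was displaced by exactly 20 bp, and 1 pair of GAL7 was just under the threshold with 19 bp.

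Displacement followed occupancy. None of the 14 pairs above the median occupancy in both libraries was displaced by 20 bp or more, which allows a share of up to 21.4%, and 14.8% of such pairs were displaced on all chromosomes. The other 15 pairs included all 6 displaced ones (40%, 16.3 to 67.7%), and 37.7% of such pairs were displaced on all chromosomes. Across the pairs of the window the absolute displacement had a Spearman correlation of -0.619 with the geometric mean occupancy, and over all pairs of the genome it was -0.391. The points come from the same 2 libraries and are given as a description. The 14 stronger pairs were displaced by at most 15 bp, at 277139 in GAL10, and by a median of 3.5 bp. The first nucleosome of GAL7, at 275421, lay 7 bp from its wild-type place in fun30D.

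**Figure D3:**
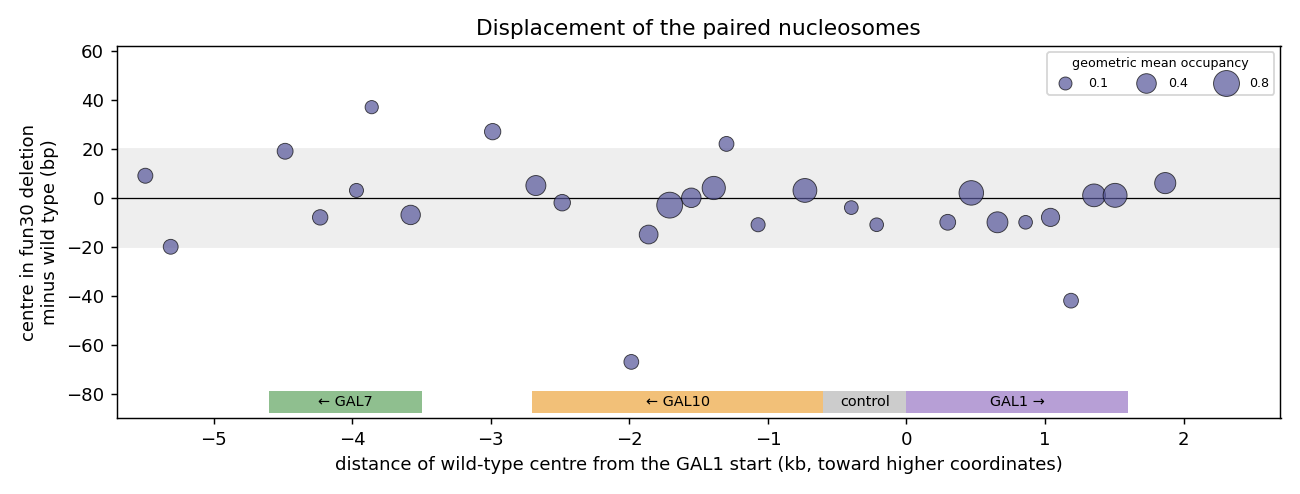
Centre in fun30D minus centre in wild type (bp) for the 29 paired nucleosomes, by distance of the wild-type centre from the GAL1 start (kb). Point size gives the geometric mean occupancy and the grey band marks displacements under 20 bp. The largest displacements, -67 bp in GAL10 and -42 bp in GAL1, belong to small points.

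Occupancy within pairs differed by less than 2-fold throughout the window. None of the 29 pairs reached a 2-fold difference, which allows a share of up to 10.3%, and 4.87% of all pairs did. A difference of 1.5-fold or more was found in 3 pairs, all in GAL10 and already named, where 22.8% of all pairs differed as much. The counting interval for these 3 of 29 pairs was 2.19 to 27.4% and included the genome share. The median log2 ratio of fun30D to wild type was 0.089 in the window and 0.0056 over all pairs. It was higher in fun30D in 16 pairs and lower in 13. The SD of the log2 ratio was 0.41 in the window and 0.50 over all pairs. By gene, 4 of 5 pairs of GAL7, 5 of 10 pairs of GAL10 and 4 of 8 pairs of GAL1 were higher in fun30D. The correlation of log2 occupancy between wild type and fun30D was r = 0.90 over the 29 pairs and r = 0.88 over all pairs.

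**Figure D4:**
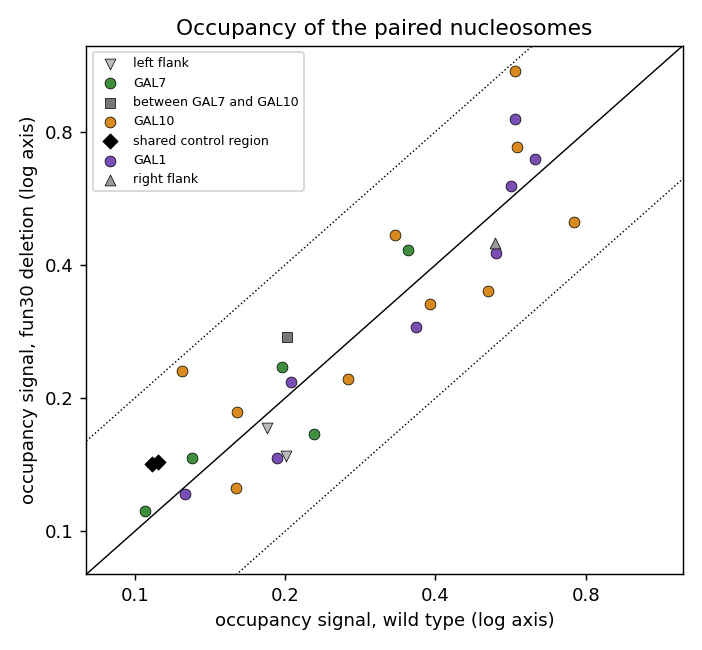
Occupancy signal of the 29 paired nucleosomes in wild type and in fun30D, on log axes, coloured by zone. The solid line marks equal values and the dotted lines a 2-fold difference, and all points lie between the dotted lines.

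Widths of paired calls in the window did not go together between the libraries. Their correlation was r = -0.40 over 29 pairs, and r = 0.12 over all pairs of the genome. The points come from the same 2 libraries. The width differed by 20 bp or more in 10 pairs of the window and in 40.5% of all pairs. In the window 5 calls were wider and 5 narrower in fun30D, where 19.9% and 20.6% of all pairs were. The largest differences were in GAL7, where the call at 275177 was 72 bp wider in fun30D than its partner and the call at 275033 was 51 bp narrower than its own, and at the start of GAL1, where the call at 279288 was 59 bp wider.

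Spacing in the cluster was compared with all chromosomes. A centre distance of at least 140 and below 190 bp, here called regular, was found for 11 of the 32 wild-type intervals (34.4%, 18.6 to 53.2%) and for 14 of the 33 fun30D intervals (42.4%, 25.5 to 60.8%). Over all chromosomes these shares were 29.3% and 31.5%. Calls that overlapped their neighbour formed 7 of the 32 wild-type intervals (21.9%, 9.28 to 39.97%) and 3 of the 33 fun30D intervals (9.09%, 1.92 to 24.3%), and 19.6% and 17.7% of all intervals. The counting intervals of the libraries overlapped for both measures. Neighbouring distances share a call, so this overlap is not a test of a difference between the libraries. Of the 7 wild-type overlaps, 3 were near the starts of GAL1 and GAL10, where the calls at 279375 and 278178 overlapped a stronger neighbour.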

How the data were processed

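The authors deposited, for each of 2 libraries, a list of nucleosome calls with chromosome, centre, width in bp and an occupancy signal, per the file headers. The submitters' processing notes name Bowtie 0.12.7 as a tool. The sources used here do not name the caller, its settings, the genome build or the scaling of the signal. The deposited signal is not a read count, so no count test was used.

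Calls on chromosomes 1 to 16 were paired when each was the nearest to the other and the centres lay at most 73 bp apart. A displacement of 20 bp or more and a 2-fold occupancy difference were the thresholds. In a simulated copy of the 48019 wild-type calls, pairing recovered the shift and ratio of 200 of 200 moved calls. The moved calls were picked to lie far from both neighbours and were moved by less than the pairing limit. The simulation therefore checks the code only, and does not cover closely spaced calls, where a pair may join different nucleosomes. Calls were assigned to genes by centre, with spans given to 0.1 kb. All calls of the window were named or counted. Shares carry exact (Clopper-Pearson) 95% intervals, and a limit at 0 rests on 3 counts; both cover counting error only. The members and thresholds were chosen with earlier results of these data known. A planned search for Gal4 sites was not run, because no sequence was used here. Other settings were pairing up to 50 or 100 bp, other thresholds, calls above the median occupancy and edges moved by 20 bp. Python 3.11.15, pandas 2.3.3 and scipy 1.17.1 were used.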

Additional observations from a re-analysis of the deposited data

How the results depend on the processing

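With 1 library per genotype, leaving out a replicate was not possible. No paired analysis was possible because each genotype had 1 library and no replicate numbers. Of 66 recomputed values, 55 kept their direction and stayed within their interval or within 1.5-fold. Among calls above the median occupancy the share of displaced pairs went from 20.7% to 0%, the median displacement from 8 to 3.5 bp and the median log2 ratio became -0.072, where it was 0.089 with all calls. The same setting left 16 wild-type and 18 fun30D calls, and the longest distance at the control region became 1108 bp in wild type and 1018 bp in fun30D. The setting removes the weak calls by construction. Without the pair with the largest occupancy difference, a setting chosen after seeing the data, the log2 ratio of summed occupancy went from 0.14 to -0.054 in GAL10 and from 0.078 to -0.047 in GAL1. Displaced pairs made up 44.8% for displacements of 10 bp or more and 6.90% for 40 bp or more, as the thresholds require. Summed occupancy above the median could not be compared for the left flank, the stretch between GAL7 and GAL10 and the control region, where at least 1 library had no such call. Pairing up to 50 or 100 bp and edges moved by 20 bp changed no direction. Pairing up to 100 bp gave values identical to the main ones, as did zone edges moved to lower coordinates. Such repeats are among the 55 kept values, so that count overstates how much was checked.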
